A study of Mus musculus with 14 samples.

Results

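The 33 genes described here are the serotonin, dopamine, adrenergic and muscarinic acetylcholine receptor genes of the mouse hippocampus data, taken as every row of the deposited gene table whose symbol begins with Htr, Drd, Adra, Adrb or Chrm followed by a digit, out of 22485 rows. RNA was measured in 14 libraries from tissue of C57BL/6 mouse hippocampus, wild type in the authors' sample table, which lists 1 mouse for all of them; its age is not given in the sources used here. Control tissue was homogenised directly. Dissociated tissue was held for 75 min at room temperature with pronase, a mix of proteases, at 1 mg/ml in artificial cerebrospinal fluid, and was then vortexed, spun and triturated in fluid with 1% FBS before the same RNA isolation. Control and dissociated libraries numbered 3 and 3 for CA1, 2 and 2 for CA3, and 2 and 2 for the dentate gyrus (DG). Because all tissue came from 1 animal, p-values measure only the spread between its tissue samples.

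These receptors are the targets of the diffuse amine and acetylcholine fibres that reach the hippocampus from the raphe, the locus coeruleus, the ventral midbrain and the medial septum. Their cell bodies lie elsewhere, while the receptors are made by hippocampal neurons and glia. All members are G protein-coupled except Htr3a and Htr3b, which form a cation channel. The receptors coupled to Gs (Htr4, Htr6, Htr7, Drd1, Drd5, the beta-adrenergic receptors) raise cyclic AMP. Those coupled to Gi (Htr1 members, Drd2 to Drd4, Adra2 members, Chrm2, Chrm4) lower it and open potassium channels, and those coupled to Gq (Htr2 members, Adra1 members, Chrm1, Chrm3, Chrm5) act through phospholipase C.

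Of the 33 members, 23 were tested, and 5 were called between regions in the tests described further on. Htr5b, Htr1b and Htr2c were called higher in CA1 and in CA3 than in DG. Htr1a was called higher and Drd1 lower in CA1 than in DG, and neither was called between CA3 and DG. RefSeq promoter sequences (GRCm38.p6) were matched for 25 of the 33 members and for 4 of these 5; Htr5b was without an entry. For the 4 called members with an entry, the 250 bases upstream of each annotated start are given 5′ to 3′ in the direction of the gene. Capitals mark matches, on either strand, to the GC box (GGGCGG), the CCAAT box (CCAAT), the TATA box (TATAAA) or the E-box (CANNTG), letters that do not overlap one another in these windows.
Htr2c (chrX:146962263-146962512, plus strand): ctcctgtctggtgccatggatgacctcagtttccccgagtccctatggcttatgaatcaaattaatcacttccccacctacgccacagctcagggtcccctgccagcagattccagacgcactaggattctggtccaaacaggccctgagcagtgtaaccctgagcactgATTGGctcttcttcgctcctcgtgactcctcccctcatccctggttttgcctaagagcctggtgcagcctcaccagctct
Htr1b (chr9:81633833-81634082, minus strand): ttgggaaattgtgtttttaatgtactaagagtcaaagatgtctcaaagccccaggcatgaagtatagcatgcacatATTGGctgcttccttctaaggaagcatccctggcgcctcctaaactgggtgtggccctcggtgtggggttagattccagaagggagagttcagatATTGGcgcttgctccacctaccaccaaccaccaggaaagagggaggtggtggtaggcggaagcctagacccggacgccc
Htr1a (chr13:105443443-105443692, plus strand): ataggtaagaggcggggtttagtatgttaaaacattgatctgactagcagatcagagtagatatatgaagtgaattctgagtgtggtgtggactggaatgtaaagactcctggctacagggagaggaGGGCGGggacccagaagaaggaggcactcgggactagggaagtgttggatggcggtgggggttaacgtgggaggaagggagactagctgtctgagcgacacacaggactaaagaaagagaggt
Drd1 (chr13:54055659-54055908, minus strand): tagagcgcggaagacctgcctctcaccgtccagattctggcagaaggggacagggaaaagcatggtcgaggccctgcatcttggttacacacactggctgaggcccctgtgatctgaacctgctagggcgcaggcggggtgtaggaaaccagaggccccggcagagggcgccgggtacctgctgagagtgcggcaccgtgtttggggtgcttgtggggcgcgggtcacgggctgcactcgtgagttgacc
The CCAAT box was found once in the Htr2c window and at 2 places in the Htr1b window, each time as ATTGG, its reverse complement. The GC box was found once, in the Htr1a window, and no searched motif was found in the Drd1 window. Over 32851 RefSeq promoter windows of the same length, 33.8% held the CCAAT box, 32.7% the GC box, 12.4% the TATA box and 66.2% the E-box; the last of these and the TATA box were in none of the 4 windows. The share of G and C was 64.0% upstream of Drd1 and 50.4% to 55.6% upstream of the other 3, against a median of 52.4% over all windows.

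Library depth ran from 65887 to 6646655 estimated counts, and 3 dissociated libraries had fewer than 500000: CA1 replicates 2 and 3, and DG replicate 3. One count in the shallowest library weighs so much that 3 counts there amount to 46.8 CPM (counts scaled to a common library size), against 0.444 CPM in the deepest. DG depth was uneven as well, with 75.7% of the 8036921 DG counts in control replicate 3. Such limits cover counting error only.

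Several libraries stood apart from their labels in the region markers. Summed over 8 CA1 pyramidal cell markers, 5 of the 6 CA1 libraries lay between 1723 and 3078 CPM, while CA1 dissociated replicate 3 had 151.8 CPM, and its 7 CA3 pyramidal cell markers summed to 702.9 CPM against 41.0 to 139.7 CPM in the other 5. The libraries labelled CA3 control replicate 1 and CA3 dissociated replicate 1 had CA1 marker sums of 2303 and 1765 CPM and CA3 marker sums of 108.8 and 161.6 CPM. CA3 control replicate 4 and CA3 dissociated replicate 4 had CA3 marker sums of 601.7 and 1002 CPM. The control library of this pair also had 868.4 CPM of CA1 markers, against 104.1 CPM in the dissociated one. All 4 DG libraries were set off by the 9 granule cell markers (680.2 to 2291 CPM against 55.9 to 186.3 CPM elsewhere), yet DG control replicate 2 and DG dissociated replicate 3 held less of them than the other 2 DG libraries, and DG control replicate 2 had 590.8 CPM of CA3 markers. For this reason region results are also given without the 3 libraries whose CA1 and CA3 markers go against the label (CA1 dissociated replicate 3 and both CA3 replicate 1 libraries), a choice made after seeing the data. These are called the 3 libraries with contrary markers.

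In the 7 control libraries the receptor messages spanned a wide range per length, in TPM (the deposited level scaled for transcript length). Chrm1, the main postsynaptic muscarinic receptor of the forebrain, had the highest level at 148.7 ± 44.7 TPM (mean ± SD, n = 7), above 94.3% of all genes in the table by its median. Adra1d, a Gq-coupled adrenergic receptor, followed at 100.4 ± 22.5 TPM, and then Chrm3, also Gq-coupled, at 54.8 ± 34.2 TPM. By their medians, Adra2c (32.1 TPM), Adrb1 (27.5), Chrm4 (20.7) and Htr1a (20.1) came next, ahead of Drd5 (17.8), Htr1b (16.7), Htr2a (15.6), Htr2c (15.4) and Htr5b (14.4). The most abundant serotonin receptor message thus was the seventh in this order and the most abundant dopamine receptor message the eighth. Every pair of neighbours in this order had overlapping ranges over the control libraries, so no 2 adjacent ranks are separated beyond their spread.

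**Figure D1:**
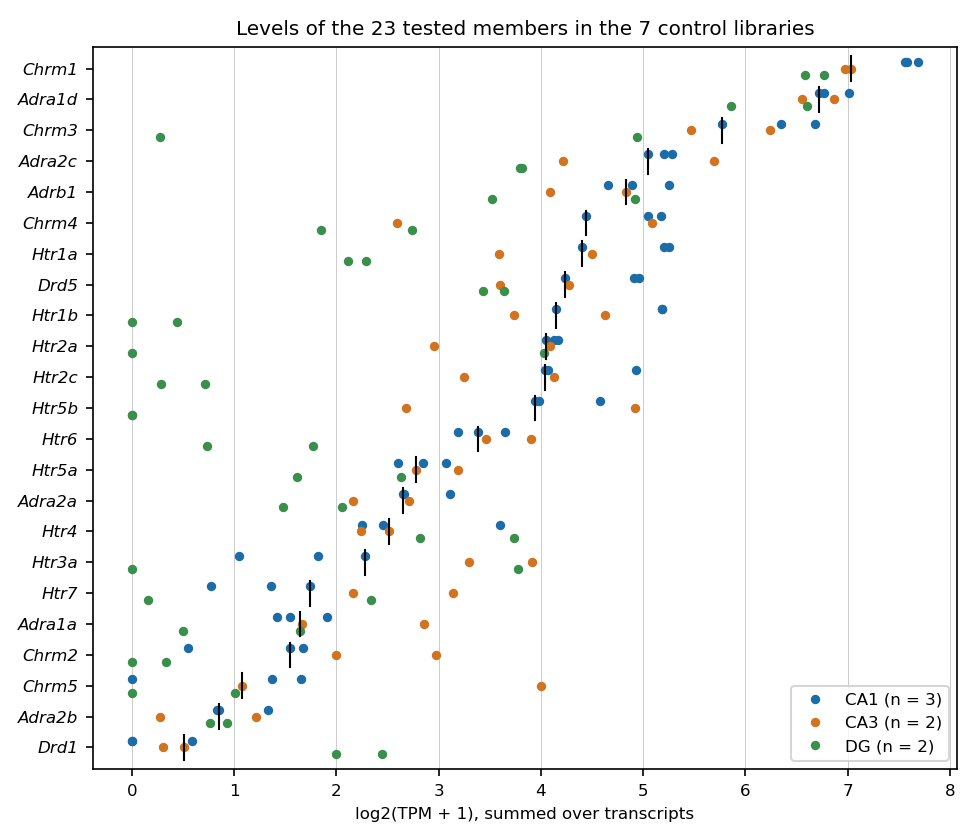
Level of each of the 23 tested members in the 7 control libraries, as log2(TPM + 1) with TPM summed over a gene's transcripts; points are libraries coloured by region and black bars the median. Chrm1, Adra1d and Chrm3 have the highest medians, and Drd1 has the lowest.

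Summed by family in CPM, which counts reads and is not per length, the regions of control tissue came apart for muscarinic and serotonin receptors. In control libraries the 5 muscarinic genes summed to 496.7 to 575.1 CPM in CA1, 419.5 and 384.2 CPM in CA3, and 271.2 and 227.2 CPM in DG. The 14 serotonin receptor genes summed to 194.7 to 230.8 CPM in CA1, 180.6 and 152.1 CPM in CA3, and 78.4 and 45.5 CPM in DG. In these control libraries both families were thus highest in CA1 and lowest in DG, without overlap. The CA3 values nearer to CA1 came from replicate 1, which carries CA1 markers. Dissociated libraries did overlap. Their muscarinic sums were 270.6 CPM in CA1 replicate 3, which carries CA3 markers, and 297.6 CPM in DG replicate 4. Serotonin sums were 79.2 CPM in CA1 replicate 3 and 93.65 CPM in DG replicate 3. How many of all genes separate in this way in control libraries was not counted. Adrenergic sums overlapped between CA1 (173.5 to 219.5 CPM) and CA3 (195.2 and 173.4 CPM), with 135.6 and 113.2 CPM in DG, and dopamine sums overlapped over all 3 regions (18.3 to 43.5 CPM). Together the members held 0.0970% to 0.0980% of counts in CA1 control libraries, 0.0856% and 0.0743% in CA3, and 0.0555% and 0.0419% in DG.

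Drd3 and Htr3b had no count in any of the 14 libraries, which allows a level of up to 0.0929 CPM (3 counts over all libraries). Drd3 is a Gi-coupled dopamine receptor known from the islands of Calleja and ventral striatum, and Htr3b is the partner subunit of the Htr3a channel. Another 8 members had too few counts to enter the tests, among them Adra1b, Adrb3, Drd2, Drd4, Htr1d, Htr1f and Htr2b. Of these, Htr2b, best known from the periphery, had 1 count in CA1 control replicate 3 and 3 counts in CA3 control replicate 1. Drd4 had 10 counts in all, 7 of them in the DG control libraries. Adrb3, the adipose-tissue beta-adrenergic receptor, was counted in 4 libraries, with 15 and 5 counts in CA1 control replicates 2 and 3, 24 in CA1 dissociated replicate 1 and 3 in CA3 dissociated replicate 1. Its summed level over the 6 CA1 libraries was at least 7.57-fold higher than in DG, where all 4 libraries were at 0. The floor was 3 counts over the pooled DG libraries, 0.362 CPM. This bound pools 44 CA1 counts, 24 of them from 1 library, while CA1 control replicate 1 and CA1 dissociated replicates 2 and 3 were at 0. It was not tested and leaves out the spread between libraries. Adrb3 exons overlap those of the antisense gene Gm45470, and the part of that gene in these counts was not tested. The highest level in any library was 3.33 CPM for Adra1b, 6.17 CPM for Htr1f and 1.67 CPM for Htr1d. No test was made on these 10 members.

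The comparison of regions asked which receptor messages differ between CA1, CA3 and DG once treatment is taken into account. Levels were compared with edgeR's quasi-likelihood test over all 14 libraries, and a gene was called where its Benjamini-Hochberg adjusted p over 13063 genes was under 0.05. The filter on low counts asked for 4.70 CPM in at least 2 libraries. Of the 23 members that passed it, Drd1 reached that level in DG libraries alone, Chrm5 in CA3 libraries alone and Adra2b in dissociated libraries alone, while Htr5b, Htr1b, Chrm2, Chrm4 and Adra1a reached it in CA1 and CA3 but in no DG library. Members that entered the tests only through the group where they are high had to differ, so their calls are read as descriptions. Between CA1 and DG, 5 of 23 tested members were called, 4 higher and 1 lower in CA1, against 4.06% of all genes tested. Between CA3 and DG, 3 members were called, all higher in CA3, against 1.77% of all genes. Between CA1 and CA3, edgeR called 0 members and 0.115% of all genes, and DESeq2 also called 0 members. In that comparison 2 of the 23 members (Htr3a and Chrm5) had an unadjusted edgeR p under 0.05, against 702 of all 13063 genes. The median log2 fold change of the 23 members was 1.00 for CA1 minus DG and 1.82 for CA3 minus DG, beside -0.04 and 0.04 over all genes. The CA1 and CA3 contrasts share the DG libraries.

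Htr5b, a serotonin receptor gene that is active in rodents, had the highest log2 fold change for CA1 minus DG (chr1:121509842-121528465, minus strand, GRCm38). In CA1 its level was 12.1, 18.7 and 11.2 CPM in control replicates 1, 2 and 3, and 11.9, 6.84 and 6.60 CPM in dissociated replicates 1, 2 and 3. In CA3 it was 22.3 and 5 CPM in control replicates 1 and 4, and 13.2 and 0 CPM in dissociated replicates 1 and 4. All 4 DG libraries had 0 counts, and CA3 and DG overlapped at 0. In DG dissociated replicate 3 this 0 allows up to 46.8 CPM, above every CA1 and CA3 value, so that a difference from that library was not detectable. Over pooled libraries Htr5b was at least 40.0-fold higher in CA1 and at least 31.2-fold higher in CA3 than in DG (limit of 3 counts over pooled DG libraries, 0.362 CPM). These bounds were not tested and leave out the spread between libraries. The edgeR fit gave adjusted p = 0.00544 for CA1 minus DG and 0.0166 for CA3 minus DG. Of the 90 CA3 counts, 78 came from the 2 replicate 1 libraries, which carry CA1 markers. From the 2 replicate 4 libraries alone, with 12 counts, the CA3 level was at least 9.53-fold higher than in DG. Without the 3 libraries with contrary markers, the CA1 call held (adjusted p = 0.00260) and the CA3 call was lost (adjusted p = 0.143).

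Htr1b, a Gi-coupled terminal autoreceptor and heteroreceptor, followed (chr9:81628291-81633828, minus strand). CA1 control replicates 1, 2 and 3 had 32.2, 28.6 and 47.0 CPM, and CA1 dissociated replicates 1, 2 and 3 had 19.4, 34.2 and 0 CPM. In CA3 control replicates 1 and 4 it had 29.1 and 10 CPM, and CA3 dissociated replicates 1 and 4 had 12.7 and 0 CPM. Levels in DG control replicates 2 and 3 were 0 and 0.800 CPM, and DG dissociated replicates 3 and 4 had 0 and 1.65 CPM. The 0 in CA1 fell in the library with CA3 markers, and the other 5 CA1 libraries exceeded the DG libraries other than dissociated replicate 3, whose 0 allows up to 46.8 CPM. Over all libraries the log2 fold change was 5.45 ± 1.10 (SE) for CA1 minus DG (adjusted p = 0.00435, edgeR) and 4.42 ± 1.12 for CA3 minus DG (adjusted p = 0.0429). Leaving out the 3 libraries with contrary markers gave 5.72 for CA1 minus DG (adjusted p = 0.000444) and 3.04 for CA3 minus DG (adjusted p = 0.225). Exons of Htr1b overlap those of the antisense gene D430036J16Rik, and the strand setting of the counts is not given in the sources used here.

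Htr2c, a Gq-coupled serotonin receptor known for editing of its message, was called in both contrasts (chrX:146962513-147197277, plus strand). Its CA1 control level was 33.5, 51.8 and 31.3 CPM in replicates 1, 2 and 3, and its CA1 dissociated level 20.3, 0 and 23.1 CPM. CA3 control replicates 1 and 4 had 17.0 and 39.2 CPM, and CA3 dissociated replicates 1 and 4 had 24.7 and 13.0 CPM. In DG control replicates 2 and 3 it had 1.47 and 0.480 CPM, and DG dissociated replicates 3 and 4 had 31.2 and 0 CPM. The high DG value rests on 2 counts in the shallowest library, and the 0 in CA1 is from a library where 3 counts are 20.5 CPM, so the ranges overlap through shallow libraries. The fitted log2 fold change was 4.76 ± 0.96 for CA1 minus DG (adjusted p = 0.00434, edgeR) and 4.53 ± 0.98 for CA3 minus DG (adjusted p = 0.0168). Htr2c kept its CA3 call without the 3 libraries with contrary markers, at 4.79 (adjusted p = 0.0375), and its CA1 call at 4.97 (adjusted p = 0.00325). Ttr, the defining message of choroid plexus, where Htr2c is abundant, was at 0 in 13 of 14 libraries and at 6.84 CPM in CA1 dissociated replicate 2, which had no Htr2c count. The 9 choroid plexus and ependymal markers summed to 3.30 to 80.1 CPM in CA1, 25.1 to 53.4 CPM in CA3 and 0 to 36.4 CPM in DG. In CA1 control libraries these sums were mostly Kl: 74.2 of 76.0 CPM in replicate 1, 54.8 of 59.8 CPM in replicate 2 and 75.7 of 80.1 CPM in replicate 3. Of the 2 markers tested, Kl was higher in CA1 than in DG (1.96 ± 0.50, adjusted p = 0.0258, edgeR) and Foxj1 was not called. The part of these markers in the Htr2c values was not tested.

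Htr1a, the Gi-coupled receptor through which serotonin inhibits pyramidal cells, was called between CA1 and DG (chr13:105443639-105448122, plus strand). It was read at 71.1, 40.0 and 70.7 CPM in CA1 control replicates 1, 2 and 3, and at 71.9, 54.7 and 0 CPM in CA1 dissociated replicates 1, 2 and 3. In CA3 it stood at 40.3 and 25.0 CPM in control replicates 1 and 4, and at 39.5 and 0.930 CPM in dissociated replicates 1 and 4. In DG it stood at 7.33 and 8.16 CPM in control replicates 2 and 3, and at 15.6 (1 count) and 0 CPM in dissociated replicates 3 and 4. As with Htr1b, the low CA1 and CA3 dissociated values came from the 2 dissociated CA libraries with the least CA1 markers. Its log2 fold change was 3.21 ± 0.81 for CA1 minus DG (adjusted p = 0.0243, edgeR) and 2.23 ± 0.82 for CA3 minus DG (adjusted p = 0.215). Without the 3 libraries with contrary markers, the first was 3.56 (adjusted p = 0.00150).

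Drd1, a Gs-coupled dopamine receptor, was the only called member that was higher in DG, and entered the test only through DG libraries (chr13:54051183-54055705, minus strand). Levels in DG control replicates 2 and 3 were 5.13 and 7.36 CPM (7 and 46 counts), and DG dissociated replicates 3 and 4 had 0 and 4.96 CPM (0 and 3 counts). Among CA1 libraries only control replicate 2 had counts, at 0.740 CPM, and the other 5 were at 0. CA3 control replicates 1 and 4 had 0.486 and 0.417 CPM, and CA3 dissociated replicates 1 and 4 had 0.822 and 0 CPM. Of the 4 DG libraries, 3 had values above all CA1 and CA3 values, and the fourth, the shallowest, was at 0. The zeros in CA1 dissociated replicates 2 and 3 allow up to 20.5 and 9.90 CPM, so that those libraries cannot be set below DG. Over all libraries the log2 fold change for CA1 minus DG was -4.35 ± 1.15 (adjusted p = 0.0329, edgeR), and for CA3 minus DG it was -3.24 ± 1.25 (adjusted p = 0.246). The call rests on 65 counts in all and held in 7 of 24 alternatives, against 16 to 23 for the other 4 members called between CA1 and DG. It was lost without the 3 libraries with contrary markers (adjusted p = 0.0554).

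**Figure D2:**
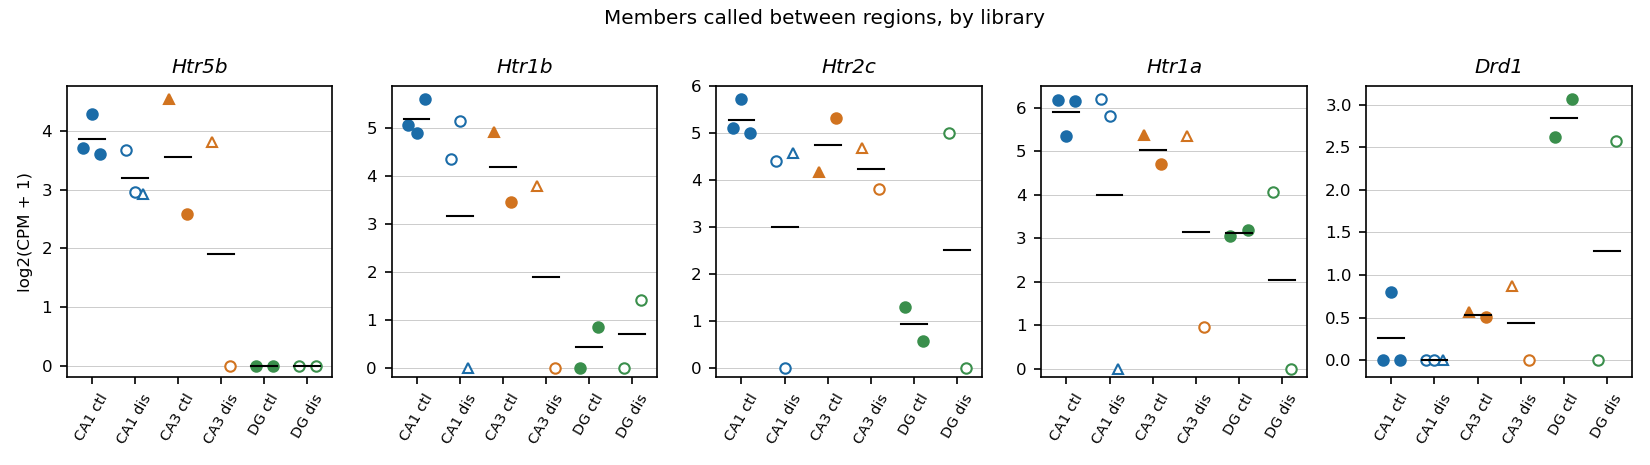
Level of the 5 members called between regions, as log2(CPM + 1), in every library of the 6 groups (ctl, control, filled; dis, dissociated, open), with the group mean as a bar; triangles are the 3 libraries whose CA1 and CA3 markers go against the label. Htr5b is at 0 in all 4 DG libraries, and Drd1 is above 0.822 CPM only in DG.

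These calls needed DG control replicate 3, the deepest DG library: without it, edgeR called 0 members in either DG contrast. The adjusted p for CA1 minus DG was then 0.0859 for Htr5b, 0.0630 for Htr1b, 0.0917 for Htr2c, 0.0987 for Htr1a and 0.176 for Drd1, with log2 fold changes of 7.69, 5.64, 3.69, 3.54 and -4.11. For CA3 minus DG it was 0.188 for Htr5b, 0.281 for Htr1b and 0.225 for Htr2c. Leaving out each of the other 13 libraries kept the CA1 calls of Htr5b, Htr1b and Htr2c. The Htr1a call was also lost without CA1 control replicate 1, CA1 control replicate 3, CA1 dissociated replicate 1 or DG dissociated replicate 4 (adjusted p = 0.0529 to 0.0587). The Drd1 call was also lost without any 1 of CA1 control replicates 1 and 3, CA1 dissociated replicate 1, CA3 control replicates 1 and 4, DG control replicate 2 and DG dissociated replicate 4 (adjusted p = 0.0558 to 0.0957). For CA3 minus DG, Htr5b was also lost without CA3 control replicate 1 (adjusted p = 0.0585) and Htr2c without CA3 control replicate 4 (0.0582). Htr1b was called in 5 of the 14 such fits for CA3 minus DG (adjusted p = 0.00973 to 0.281), being lost without any 1 of CA1 control replicates 1, 2 and 3, CA1 dissociated replicate 1, CA3 control replicates 1 and 4, CA3 dissociated replicate 1, and DG control replicates 2 and 3.

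**Figure D3:**
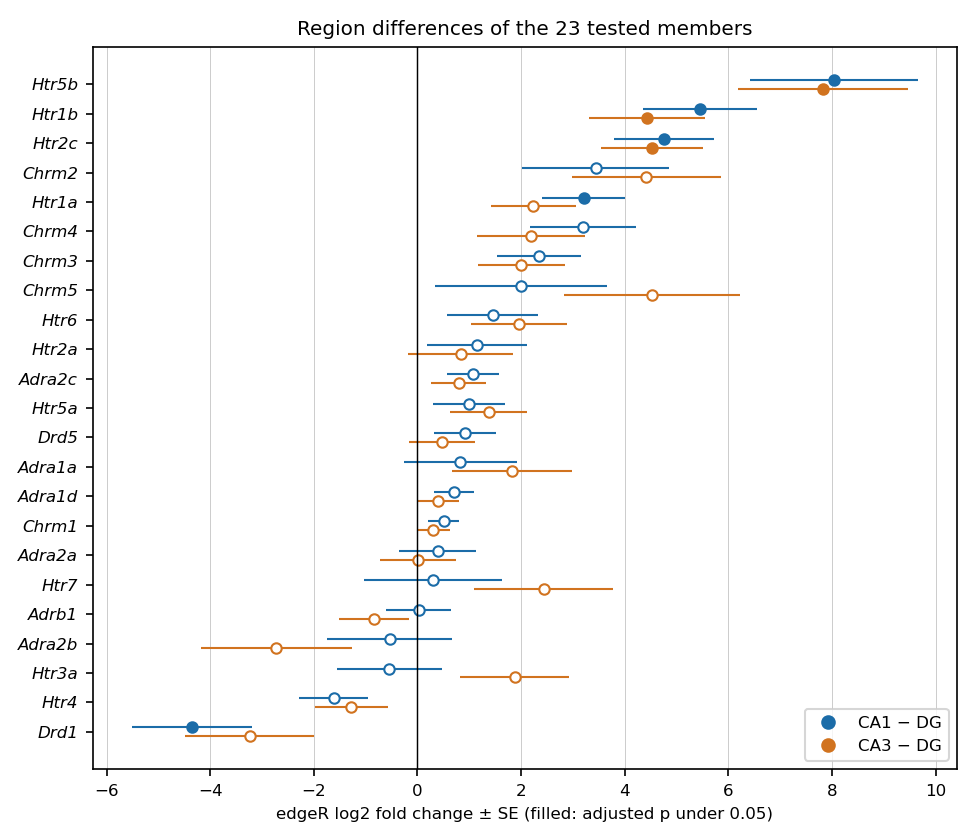
Log2 fold change ± SE of the 23 tested members for CA1 minus DG (blue) and CA3 minus DG (orange), from edgeR; filled points have an adjusted p under 0.05. The 19 members right of 0 for CA1 minus DG include all 5 muscarinic genes, none of which was called. Of these, Chrm2, Chrm4 and Chrm5 reached the filter level in no DG library.

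Muscarinic members were positive in both DG contrasts, without a call. The 5 of them had median log2 fold changes of 2.34 for CA1 minus DG and 2.19 for CA3 minus DG. Chrm2, Chrm4 and Chrm5 reached the filter level in no DG library, so the filter favoured their sign and these medians are descriptions only. Chrm1 and Chrm3 reached that level in all 3 regions. For CA1 minus DG they had 0.50 and 2.34, and for CA3 minus DG 0.31 and 2.00. Chrm1 stood at 403.8, 377.2 and 371.1 CPM in CA1 control replicates 1, 2 and 3, and at 272.9, 218.8 and 171.6 CPM in CA1 dissociated replicates 1, 2 and 3. It had 251.1 and 295.9 CPM in CA3 control replicates 1 and 4, and 303.9 and 185.0 CPM in CA3 dissociated replicates 1 and 4. In DG it had 203.8 and 225.2 CPM in control replicates 2 and 3, and 62.4 and 295.9 CPM in dissociated replicates 3 and 4. The regions overlapped over all libraries, with a log2 fold change for CA1 minus DG of 0.50 ± 0.29 (adjusted p = 0.440, edgeR).

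Chrm3 differed widely between the 2 DG control libraries. Its DG level was 62.3 CPM (85 counts) in control replicate 2 and 0.320 CPM (2 counts) in control replicate 3, and it was 78.0 CPM (5 counts) in dissociated replicate 3 and 0 CPM in dissociated replicate 4. CA1 libraries had 154.3, 96.8 and 159.4 CPM in control replicates 1, 2 and 3, and 82.2, 47.9 and 99.0 CPM in dissociated replicates 1, 2 and 3. CA3 libraries had 124.8 and 75.4 CPM in control replicates 1 and 4, and 74.4 and 60.4 CPM in dissociated replicates 1 and 4. The 2 DG libraries with more than 2 Chrm3 counts are those with the lower granule cell marker sums. The same 2 held the DG counts of Htr2a (30 and 1, against 0 and 0 in the others) and of Htr3a (17 and 1, against 0 and 0). In DG control replicate 2 the 11 interneuron markers summed to 1375 CPM, against 378.8 CPM in DG control replicate 3, and the part of other cells in these values was not tested. With all libraries, the log2 fold change of Chrm3 for CA1 minus DG was 2.34 ± 0.81 (adjusted p = 0.118, edgeR). Without DG control replicate 2 it was 6.26 and called (adjusted p = 0.000716), and for CA3 minus DG 5.87 (adjusted p = 0.00221). Htr2a was likewise called in both contrasts without that library, and Htr3a in CA3 minus DG.

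Chrm4, a Gi-coupled muscarinic receptor, had 12.1, 20.4 and 17.9 CPM in CA1 control replicates 1, 2 and 3, and 11.9, 27.4 and 0 CPM in CA1 dissociated replicates 1, 2 and 3. It was at 18.0 and 3.33 CPM in CA3 control replicates 1 and 4, and at 7.40 and 0 CPM in CA3 dissociated replicates 1 and 4. In DG control replicates 2 and 3 it had 3.67 and 1.60 CPM, and both DG dissociated libraries were at 0. Its log2 fold change for CA1 minus DG was 3.19 ± 1.03 (adjusted p = 0.0869, edgeR), and it was called by DESeq2, without a filter on low counts, and without the 3 libraries with contrary markers, CA1 dissociated replicate 3 alone or CA3 dissociated replicate 4 alone (adjusted p = 0.0113 to 0.289 over 24 alternatives). Chrm2 and Chrm5 were scarce: Chrm2 stayed at 27.4 CPM or below with 2 counts over the 4 DG libraries, and Chrm5, with 1 DG count, was highest in the 2 CA3 replicate 1 libraries at 9.23 and 11.1 CPM.

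Among adrenergic members, Adra2c, a Gi-coupled receptor, had 48.7, 54.8 and 55.1 CPM in CA1 control replicates 1, 2 and 3, and 95.9, 95.7 and 3.30 CPM in CA1 dissociated replicates 1, 2 and 3. CA3 had 72.4 and 30.4 CPM in control replicates 1 and 4, and 66.6 and 22.3 CPM in dissociated replicates 1 and 4, while DG had 22.0 and 20.8 CPM in control replicates 2 and 3, and 15.6 and 47.9 CPM in dissociated replicates 3 and 4. The 3.30 CPM came from 1 count in the CA1 library with CA3 markers. For CA1 minus DG the log2 fold change was 1.07 ± 0.51 (adjusted p = 0.309, edgeR), and without the 3 libraries with contrary markers it was called (adjusted p = 0.0233 to 0.712 over 24 alternatives). Adrb1, the main neuronal beta-adrenergic receptor of the forebrain, had 25.9, 40.0 and 29.5 CPM in CA1 control replicates 1, 2 and 3, and 34.5, 109.4 and 13.2 CPM in CA1 dissociated replicates 1, 2 and 3. It had 27.7 and 19.6 CPM in CA3 control replicates 1 and 4, 30.8 and 0 CPM in CA3 dissociated replicates 1 and 4, 12.5 and 33.5 CPM in DG control replicates 2 and 3, and 31.2 and 74.4 CPM in DG dissociated replicates 3 and 4. The scarcer Gq-coupled Adra1a and Gi-coupled Adra2a, neither of them called, reached 14.9 and 20.5 CPM at most. All regions overlapped for Adrb1, and its log2 fold change for CA1 minus DG was 0.02 ± 0.63.

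Drd5, the other Gs-coupled dopamine receptor, had the highest median TPM of the dopamine receptors in control tissue. CA1 control replicates 1, 2 and 3 had 24.6, 41.7 and 38.5 CPM, and CA1 dissociated replicates 1, 2 and 3 had 31.7, 6.84 and 0 CPM. Levels in CA3 control replicates 1 and 4 were 23.8 and 17.5 CPM, and CA3 dissociated replicates 1 and 4 had 26.7 and 5.58 CPM. DG control replicates 2 and 3 had 17.6 and 14.4 CPM, and DG dissociated replicates 3 and 4 had 0 and 14.9 CPM. CA1 control libraries thus lay above DG control libraries, while the full regions overlapped (log2 fold change 0.92 ± 0.60, adjusted p = 0.504, edgeR). Exons of Drd5 overlap those of the antisense gene Gm26560. Drd2, a Gi-coupled receptor, had 19 of its 31 counts in DG control replicate 2 (13.9 CPM) and 1 count in DG control replicate 3 (0.160 CPM). It was at 0, 0.592 and 0.448 CPM in CA1 control replicates 1, 2 and 3, and at 1.46 and 0.417 CPM in CA3 control replicates 1 and 4. Of the dissociated libraries only CA1 replicate 1 had Drd2, at 0.457 CPM.

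Htr4 and Htr6, both Gs-coupled, were the 2 of 23 members whose counted levels did not overlap between CA3 and DG, against 5.67% of all genes tested, and neither passed the test. For CA1 and DG the count was 1 of 23 (Htr5b) against 3.46% of all genes, and for CA1 and CA3 0 of 23 against 1.63%. Htr4 ran from 6.17 to 11.3 CPM in the 4 CA3 libraries and from 13.9 to 28.1 CPM in the 4 DG libraries (log2 fold change -1.27 ± 0.71, adjusted p = 0.516, edgeR). Htr6 ran the other way, from 6.17 to 13.1 CPM in CA3 and from 0 to 4.96 CPM in DG (1.96 ± 0.92, adjusted p = 0.396). In DG dissociated replicate 3 the Htr4 value of 15.6 CPM was 1 count and the Htr6 value of 0 allows up to 46.8 CPM, so neither separation was measurable in that library. Htr7 was between 0 and 17.7 CPM, highest in CA3 dissociated replicate 4, CA1 dissociated replicate 3 and CA3 control replicate 4, which are also the 3 libraries outside DG with the highest CA3 marker sums. Htr3a had the smallest unadjusted p of the CA1 and CA3 comparison (0.00903), with a log2 fold change of -2.42 ± 0.85 (adjusted p = 0.577).

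The Htr2c transcripts differed between libraries in which model took the estimated counts. Of 4 deposited Htr2c transcripts, Htr2c-002 held 75.9% and Htr2c-003 22.0% of the gene's counts. In GENCODE M21 the longer Htr2c-002 (4747 bases) codes for 459 amino acids and Htr2c-003 (4654 bases) for 172, and they share 4651 bases. Apart from 1 base at the start and 3 at the end, they differ by 95 coding bases (chrX:147169676-147169770, plus strand), present in Htr2c-002 and spliced out of Htr2c-003, which shifts the reading frame. Capitals mark the run of 5 codons within which the known A-to-I editing sites lie.
Htr2c-002 only: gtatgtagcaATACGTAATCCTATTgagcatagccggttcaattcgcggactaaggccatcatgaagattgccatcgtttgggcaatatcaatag
All Htr2c counts went to Htr2c-002 in CA1 control replicates 1 and 3 (75 and 70 counts), CA1 dissociated replicate 1 (89) and, but for a trace, CA3 control replicate 1 (35.0). In CA1 control replicate 2, 338.6 counts went to Htr2c-002 and 11.4 to the short Htr2c-006. All counts went to Htr2c-003 in CA3 control replicate 4 (94), CA3 dissociated replicate 1 (60), CA1 dissociated replicate 3 (7) and the DG control libraries (2 and 3), and most in CA3 dissociated replicate 4 (9.28 beside 4.72 for Htr2c-006). In DG dissociated replicate 3, 1.16 counts went to Htr2c-003 and 0.841 to Htr2c-006. Apart from the trace in CA3 control replicate 1, no library divided its counts between Htr2c-002 and Htr2c-003. The CA3-labelled replicate 1 libraries, both with CA1 markers, fell on opposite sides. Reads that separate these models can come only from the 95-base stretch, its junctions and the outer ends, and their number is not in the deposited tables.

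**Figure D4:**
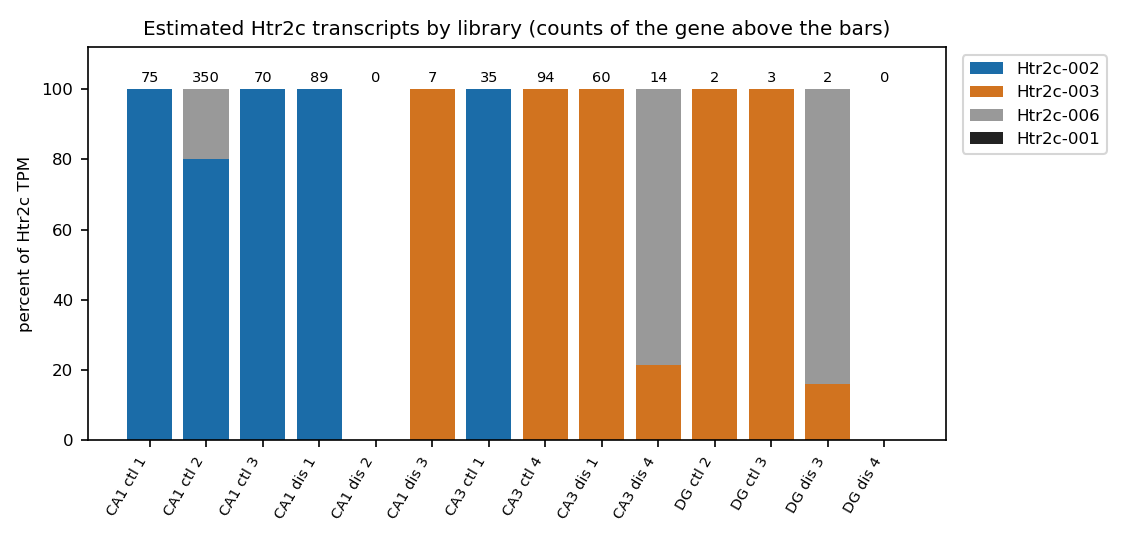
Share of the Htr2c TPM that went to each of 4 transcripts in every library (percent), with the gene's count above each bar; libraries without an Htr2c count have no bar. CA1 bars are Htr2c-002 except for a smaller part of Htr2c-006 in CA1 control replicate 2 and the whole bar of CA1 dissociated replicate 3, and the DG control bars are Htr2c-003.

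The comparison of dissociated with control tissue asked whether these messages differ after the whole dissociation procedure. Its steps (incubation, pronase, vortexing, spinning and trituration) came together and cannot be told apart. Across regions, 0 of 23 tested members were called by edgeR, against 0.773% of all genes. At an unadjusted edgeR p under 0.05 were 3 of the 23 members (Htr5a, Adra1d and Adra2b), against 1622 of all 13063 genes. DESeq2 called 1, Htr5a. Of the 23 log2 fold changes, 15 were negative and 8 positive, with a median of -0.62 beside -0.11 over all genes, of which 58.1% were negative. Serotonin receptors had 8 of 10 negative and a median of -0.71, both dopamine receptors were negative, muscarinic receptors had 3 of 5 negative, and adrenergic receptors had 4 of 6 positive and a median of 0.30. In bulk tissue, fewer cells of a type and less RNA per cell cannot be told apart.

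Markers of oligodendrocytes, their precursors and microglia moved with the treatment. Of 15 oligodendrocyte markers 11 were called higher in dissociated libraries by edgeR. So were 3 of 6 oligodendrocyte precursor markers and 10 of 15 microglia markers, against 0.773% of all genes called in either direction. All 15, 6 and 15 of them had a positive log2 fold change. Oligodendrocyte marker sums were 706.9 to 944.5 CPM in CA1 control and 1640 to 6818 CPM in CA1 dissociated libraries, 3726 and 3815 against 12423 and 13946 CPM in CA3, and 2010 and 4216 against 3341 and 10130 CPM in DG. Microglia marker sums were 333.9 to 585.8 CPM in control and 715.8 to 2715 CPM in dissociated libraries of all regions. Of 11 astrocyte markers, 11 were positive and 0 called. Of the tested CA1 pyramidal cell markers 0 of 7 were positive (median log2 fold change -0.87), and of CA2 markers 1 of 5 (-0.66). Of CA3 pyramidal cell markers 4 of 5 were positive (1.09), and of granule cell markers 6 of 9 (0.34). No marker of these 4 neuronal lists was called for treatment. The part of all these shifts in the receptor values was not tested.

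Htr5a, a Gi-coupled serotonin receptor of forebrain neurons, had the smallest treatment p. In CA1 its level was 17.9, 12.3 and 14.3 CPM in control replicates 1, 2 and 3, and 4.80, 0 and 6.60 CPM in dissociated replicates 1, 2 and 3. In CA3 it was 18.5 and 16.3 CPM in control replicates 1 and 4, and 4.11 and 9.30 CPM in dissociated replicates 1 and 4. In DG it was 13.9 and 5.28 CPM in control replicates 2 and 3, and 0 in both dissociated libraries. As counted, dissociated libraries were lower without overlap in all 3 regions. The 0 in CA1 dissociated replicate 2 allows up to 20.5 CPM, above all CA1 controls, so that only CA3 was separated in every library. The fitted log2 fold change was -1.84 ± 0.57 (adjusted p = 0.161, edgeR), 3.58-fold lower, and it did not pass the threshold. It lay between -3.32 and -1.60 over 23 alternatives, with DESeq2 alone under the threshold (adjusted p = 0.0230 to 0.331). Without the 3 libraries with contrary markers it was -1.87 (adjusted p = 0.331). In DG, 3 counts amount to 46.8 and 4.96 CPM in the 2 dissociated libraries, so that a difference from control was not detectable in the shallower of them.

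**Figure D5:**
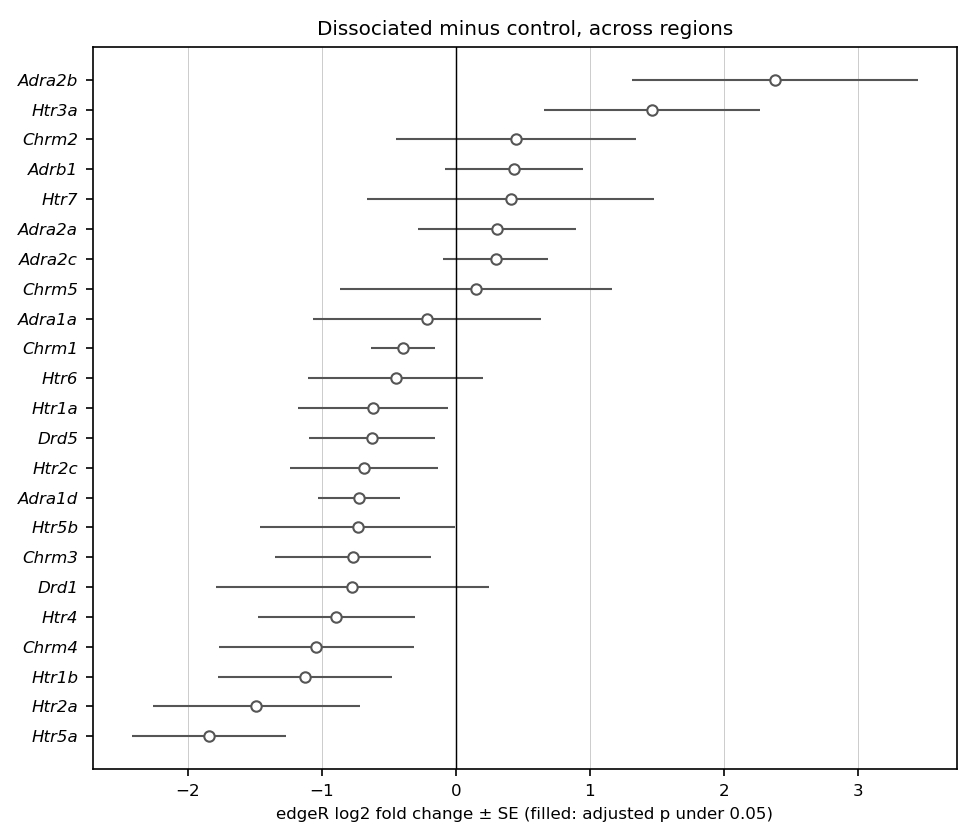
Log2 fold change ± SE of dissociated minus control tissue for the 23 tested members, from edgeR over all 14 libraries; open points did not reach an adjusted p under 0.05, which holds for all 23. Htr5a is lowest at -1.84 and Adra2b highest at 2.38.

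Adra1d had 83.2, 102.4 and 82.4 CPM in CA1 control replicates 1, 2 and 3, and 80.1, 109.4 and 23.1 CPM in CA1 dissociated replicates 1, 2 and 3. It had 69.4 and 105.0 CPM in CA3 control replicates 1 and 4, and 62.9 and 25.1 CPM in CA3 dissociated replicates 1 and 4. In DG control replicates 2 and 3 it had 85.0 and 48.2 CPM, and DG dissociated replicates 3 and 4 had 46.8 and 26.5 CPM. As counted, treated libraries were lower without overlap in CA3 and DG and overlapped control in CA1, where only the library with CA3 markers was low. In DG the nearest values were 48.2 CPM in control replicate 3 and 46.8 CPM in dissociated replicate 3. The latter is only 3 counts, so this separation lies within the counting error of that library. Its log2 fold change was -0.72 ± 0.31 (adjusted p = 0.336, edgeR). Exons of Adra1d overlap those of the antisense gene Gm14285.

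Adra2b, a Gi-coupled adrenergic receptor, had the highest treatment value on few counts, and entered the test only through dissociated libraries. CA1 control replicates 1, 2 and 3 had 1.34, 1.48 and 2.69 CPM, and CA1 dissociated replicates 1, 2 and 3 had 3.43, 13.7 and 26.4 CPM, or 15, 2 and 8 counts. Levels in CA3 control replicates 1 and 4 were 1.94 and 0.417 CPM, and CA3 dissociated replicates 1 and 4 had 0.411 and 0 CPM. DG control replicates 2 and 3 had 1.47 and 1.28 CPM, and DG dissociated replicates 3 and 4 had 78.0 and 3.31 CPM, or 5 and 2 counts. Treated libraries were higher without overlap in CA1 and DG, where single values rest on as few as 2 counts. In CA3 the nearest treated and control values were 1 count each, and the treated 0 allows up to 2.79 CPM, above both controls, so no direction can be read there. In DG dissociated replicate 3 the 8 pericyte and smooth muscle markers summed to 2513 CPM with 2 of them detected, against 49.8 to 245.4 CPM elsewhere, and their part in the Adra2b value was not tested. Across regions the log2 fold change was 2.38 ± 1.07 (adjusted p = 0.368, edgeR).

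Htr2a, a Gq-coupled serotonin receptor known as the target of classical hallucinogens, had 21.5, 20.3 and 21.0 CPM in CA1 control replicates 1, 2 and 3, and 4.34, 6.84 and 13.2 CPM in CA1 dissociated replicates 1, 2 and 3. In CA3 control replicates 1 and 4 it had 19.4 and 10 CPM, and CA3 dissociated replicates 1 and 4 had 9.05 and 3.72 CPM. Levels in DG control replicates 2 and 3 were 22.0 and 0 CPM, and DG dissociated replicates 3 and 4 had 15.6 (1 count) and 0 CPM. As counted, the treated libraries were lower without overlap in CA1 and CA3 and not in DG. The 6.84 CPM in CA1 dissociated replicate 2 is 1 count, and 3 counts there amount to 20.5 CPM, above the lowest CA1 control. Only CA3 was therefore separated in every library. Over all libraries the log2 fold change was -1.49 ± 0.77 (adjusted p = 0.440, edgeR).

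Htr3a, the channel-forming serotonin receptor subunit known from interneurons, had 2.24, 3.40 and 0.895 CPM in CA1 control replicates 1, 2 and 3, and 6.17, 0 and 16.5 CPM in CA1 dissociated replicates 1, 2 and 3. CA3 control replicates 1 and 4 had 7.28 and 14.2 CPM, and CA3 dissociated replicates 1 and 4 had 34.5 and 56.7 CPM. In DG control replicates 2 and 3 it had 12.5 and 0 CPM, and DG dissociated replicates 3 and 4 had 15.6 (1 count) and 0 CPM. Only CA3 had treated libraries above control libraries without overlap. The fitted log2 fold change was 1.46 ± 0.80 (adjusted p = 0.470, edgeR), and 0.93 without the 3 libraries with contrary markers. Interneuron markers were mostly negative: of 11, edgeR called 0, 2 were positive, and their sums in CA3 were 1352 and 1430 CPM in control and 1206 and 825.5 CPM in dissociated libraries. In CA1 they were 576.9, 798.4 and 761.9 CPM in control and 1008, 1053 and 768.9 CPM in dissociated libraries, and in DG 1375 and 378.8 against 437.0 and 257.9 CPM.

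Within single regions no member was called by edgeR either. In CA1, 0 of 23 members were called, against 0.191% of all genes, and 0 by DESeq2. An unadjusted edgeR p under 0.05 was reached by 3 of the 23 members (Htr4, Adra2b and Chrm1), against 1464 of all 13063 genes. Chrm1 was lower without overlap in CA1 dissociated libraries (log2 fold change -0.78 ± 0.36, adjusted p = 0.425). Htr4 had 23.3, 7.85 and 8.95 CPM in CA1 control replicates 1, 2 and 3, and 2.28, 0 and 0 CPM in CA1 dissociated replicates 1, 2 and 3, with a log2 fold change of -2.85 ± 0.89 (adjusted p = 0.237). The zeros allow up to 20.5 and 9.90 CPM, above 2 of the 3 controls, so that 2 of 3 treated libraries could not show a difference. In CA3 the count was 0 of 23 members, against 0% of all genes, and 0 by DESeq2. An unadjusted edgeR p under 0.05 was reached there by 0 members, against 523 of all 13063 genes. In DG edgeR called 0 of 23 members, against 0.161% of all genes, and DESeq2 called Adra2b. There 2 of the 23 members (Htr5a and Adra2b) had an unadjusted edgeR p under 0.05, against 1839 of all 13063 genes. The interaction of treatment and region, tested over all 3 regions together, called 0 members and 0% of all genes by edgeR, and 0 members by DESeq2. Htr4 had an unadjusted edgeR p under 0.05 for the interaction (adjusted p = 0.581), as did 1112 of all 13063 genes. A difference of the treatment effect between regions was therefore not detected for any member. Counted levels of control and dissociated libraries did not overlap for 6 of 23 members in each region, against 23.1% of all genes in CA1, 33.8% in CA3 and 40.5% in DG, shares near or above that of the members.

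Signalling genes downstream and around the receptors were read from 5 lists. Beside them, edgeR called 0.773% of all genes tested for treatment, 4.06% between CA1 and DG, 1.77% between CA3 and DG and 0.115% between CA1 and CA3. Of 20 genes of amine and acetylcholine synthesis, transport and breakdown 13 were tested, and 0 were called for treatment. Slc29a4, a low-affinity plasma membrane monoamine transporter, was higher in DG than in CA1 (log2 fold change for CA1 minus DG -2.45 ± 0.54, adjusted p = 0.00933, edgeR) and than in CA3 (-3.07 ± 0.60, adjusted p = 0.00856). The messages of serotonin neurons themselves were found in few libraries: Slc6a4, the serotonin transporter, was counted in DG control replicate 2 alone at 2.20 CPM, and Tph2, the neuronal enzyme of serotonin synthesis, in 4 libraries at 2.40 CPM or below. Slc6a3, the dopamine transporter, reached 31.3 CPM in CA1 control replicate 1, where Th, the first enzyme of dopamine synthesis, was at 19.7 CPM. Among 17 tested G protein genes, Gnaz was called higher after dissociation (2.44 ± 0.50, adjusted p = 0.0180), and Gnal, the Golf alpha subunit that couples dopamine receptors to adenylyl cyclase, was called higher in DG than in CA1 (-1.20 ± 0.30, adjusted p = 0.0247).

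Of 27 effector genes, 0 were called for treatment. Itpr1, the receptor that releases calcium downstream of Gq, was higher in CA1 than in DG (2.04 ± 0.46, adjusted p = 0.0111, edgeR), and Prkacb, a catalytic subunit of protein kinase A, was lower (-1.09 ± 0.26, adjusted p = 0.0185). Rapgef4, a cyclic AMP sensor, was higher in CA3 than in DG (2.06 ± 0.36, adjusted p = 0.00375) and lower in CA1 than in CA3 (-1.83 ± 0.31, adjusted p = 0.00853). Of 25 tested genes for receptor desensitisation, RGS proteins and phosphodiesterases, 4 were called between CA1 and DG, against 4.06% of all genes. For treatment 0 were called, against 0.773% of all genes. Rgs6, which speeds the turn-off of Gi proteins, and Pde1b were higher in DG (-4.52 ± 0.84 and -1.90 ± 0.40), and Pde2a and Pde1a were higher in CA1 (1.46 ± 0.24 and 2.86 ± 0.65). Between CA3 and DG, Pde1b (-2.02 ± 0.45) and Pde2a (1.10 ± 0.25) were called. Of 14 histamine, trace amine and nicotinic receptor genes 9 were tested, and edgeR called 0 of them for treatment or between regions, with Hrh3 and Chrna7 alone reaching an unadjusted p under 0.05. Hrh3, a Gi-coupled histamine receptor, came nearest between CA3 and DG (3.19 ± 0.93, adjusted p = 0.0858), and Chrna7, a nicotinic channel subunit, for treatment (-1.40 ± 0.44, adjusted p = 0.161).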

How the data were processed

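RNA was measured in 14 libraries of 6 groups (3 regions, 2 treatments). The gene table holds estimated counts that the authors made from kallisto output: per the file headers and values, each row equals the transcripts' estimated counts summed by symbol and rounded (largest difference 0.5). TPM per transcript was deposited by the authors for 58716 transcripts and was summed by gene here for levels. The submitters' processing notes name FastQC, cutadapt, kallisto and DESeq2. No version, build or strand setting is given in the sources used here. Positions are from GENCODE M21 (GRCm38).

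The quasi-likelihood F test of edgeR 4.0.16 (R 4.3.3, TMM scaling) was run on the counts after filterByExpr over the 6 groups (minimum count 10, minimum total 15), which kept 13063 of 22485 genes and 23 of 33 members. Region and treatment effects came from an additive model over all 14 libraries (10 residual degrees of freedom). Effects within regions and the interaction were fitted with a mean for each of the 6 groups, leaving 8 residual degrees of freedom. P-values were adjusted by Benjamini-Hochberg over all 13063 genes at 0.05. The SE was computed from the F statistic. CPM are counts over the TMM-scaled library size, and a count of 0 was given a limit of 3 counts. The fit was tested on simulated data.

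Alternatives were RLE size factors, no filter, no library under 500000 counts, each library left out, replicate blocks, control libraries alone, DESeq2 1.42.0, and limma 3.58.1 on log2(TPM + 1) and log2(TPM + 0.1). Leaving out libraries by their markers was added after seeing the data. Members and lists were chosen with earlier results of these data known. Values in every library are given for called members, the 3 highest of each family and the 5 of smallest treatment p, and list genes are named if called or among the 3 next in p. Some items are not reported here.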

Additional observations from a re-analysis of the deposited data

Results flagged for a closer look

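Adra2b had fitted values of opposite sign between regions. Its log2 fold change of dissociated minus control tissue was 2.84 within CA1, -1.92 within CA3 and 4.49 within DG, and as counted no dissociated library overlapped a control library of its region. The interaction of treatment and region did not pass the threshold for Adra2b (adjusted p = 0.596, edgeR). In CA3 the nearest values were 0.417 CPM in control and 0.411 CPM in dissociated tissue, 1 count each, and the 0 in dissociated replicate 4 allows up to 2.79 CPM, so the direction in CA3 cannot be read from these counts. The CA3 value rests on 5 counts in control and 1 count in dissociated libraries, and the DG value on 10 and 7 counts.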

How the results depend on the processing

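For dissociated against control tissue across regions, the count of called members was 0 in all alternatives run except DESeq2, which called 1 (Htr5a). For CA1 minus DG, 5 members were called, against 3 with a replicate block by number over regions, and 1 with limma on log2(TPM + 1) and 1 on log2(TPM + 0.1), Htr5b both times. Leaving out each library gave 0 to 6. For CA3 minus DG, 3 were called, against 6 without a filter on low counts, 1 with the block by number (Htr5b), 0 with limma on log2(TPM + 1), 0 on log2(TPM + 0.1), 1 without the 3 libraries with contrary markers (Htr2c), and 5 without the 2 DG libraries with the lower granule cell markers (Chrm3, Htr2a, Htr2c, Htr3a and Htr5b). Leaving out each library gave 0 to 5. For CA1 minus CA3, 1 member (Htr3a) was called without a filter, and within DG DESeq2 called 1 (Adra2b). In the other comparisons each such count stayed at 0, leave-one-out included. Apart from fewer samples or another set of tested genes, the cause of these shifts was not tested. For the members called between regions and the 5 of smallest treatment p, each followed in that comparison alone, 249 values under alternatives kept their direction and side of the threshold, 55 kept the direction and lost the call, and 1 gained it (Htr5a with DESeq2). The 5 treatment members were not called to begin with, so the 249 include values that stayed without a call. All 55 lost calls were calls between regions, so the 249 do not measure how stable those calls are.

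Correlations between same-numbered control and dissociated libraries were -0.0277, 0.0136 and 0.0194 in CA1, 0.0673 in CA3 and -0.164 in DG. In CA3 and in DG the values of all pairings differed only in sign, so they cannot decide pairing. Region markers went by number in CA3, with CA1 marker sums of 2303 and 1765 CPM in the replicate 1 libraries. CA3 marker sums were 601.7 and 1002 CPM in the replicate 4 libraries. In CA1 replicate 3 they did not, with CA1 marker sums of 3077.5 CPM in control and 151.8 CPM in dissociated tissue. The main fits did not take the numbers as pairs, and whether they are pairs was not settled. With a replicate block within regions, 0 members were called for treatment. The 3 libraries under 500000 counts limit what dissociated tissue can show: without them CA1 minus DG had 4 called members (Drd1 lost) and CA3 minus DG 3.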
